A study of Mus musculus with 103 samples.

Results

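The proteasome is the barrel-shaped protease that breaks down ubiquitin-tagged proteins in the cytosol and nucleus of mouse cells, and the genes described here encode its constitutive parts. They are the 34 symbols Psma1 to Psma7, Psmb1 to Psmb7, Psmc1 to Psmc6 and Psmd1 to Psmd14, each represented by its transcript row of highest mean level. All 34 had a row in the RNA table, and all 34 reached at least 1 RPKM (reads divided by transcript length in kb and by library size) in at least 2 of the 6 libraries, as did 10605 of the 24014 gene symbols. Membership goes by gene symbol and uses no measured value, although the set was proposed with earlier results of these data known. Psmd5, Psmd9 and Psmd10 belong to it by symbol although their proteins are assembly chaperones that leave the finished particle, so they are described apart.

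The study followed macrophages that thioglycollate broth draws into the peritoneal cavity of mice and that respond to bacterial lipid. Kdo2-lipid A (KLA) is the lipid A part of lipopolysaccharide and acts through the receptor TLR4. The 6 RNA libraries were made from poly(A) RNA of these cells, 1 library a condition, and the values in them carry no replicate error. The libraries are KLA for 1, 6 and 12 h with the untreated control labelled for 1 to 12 h, and KLA for 24 h with an untreated control labelled for 24 h.

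All 6 groups share their source and culture. The cells came from male C57BL/6 mice aged 6 to 8 weeks, by lavage 3 to 4 days after 2.5 ml of thioglycollate, were kept in medium with 0.5% serum overnight, and received KLA at 100 ng/ml or nothing. The labels do not give how many mice went into a library. The 2 peak lists used below come from ChIP-seq of SREBP1 and of LXR in such cells. Both are titled as treated with GW3965, a synthetic LXR agonist, but the treatment label of the LXR sample reads control, while its file header names GW3965.

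The core particle of the proteasome stacks alpha rings outside beta rings, and its catalytic beta subunits cut peptides inside the closed chamber. The regulatory particle caps the alpha ring: its lid removes the ubiquitin chain, and the ATPase ring of its base unfolds the substrate and threads it in. In activated macrophages interferon signalling is known to raise the inducible beta subunits Psmb8, Psmb9 and Psmb10, which replace Psmb5, Psmb6 and Psmb7 in newly made particles, the immunoproteasomes that generate peptides for antigen presentation. When proteasome activity falls short, the transcription factor encoded by Nfe2l1 is known to raise the constitutive subunit genes together through antioxidant response elements in their promoters.

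The promoters are shown first, since motifs in them were not used in the choice by name. RefSeq promoter windows on GRCm38.p6 were matched by symbol for 28 of the 34 members; Psmb1, Psmb2, Psmb7, Psmc3, Psmd3 and Psmd7 were not matched. In the 250 bases before the start, the antioxidant response element core TGACNNNGC, searched on both strands, was present in 5 of the 28 members (17.9%), against 11.5% of 27025 gene symbols with a window. Those 5 are Psmb5, Psmb6, Psmc6, Psmd12 and Psmd9. For the catalytic subunits Psmb5 and Psmb6 the whole window is printed on the gene's strand, and for the other 3 the core with its flanks, on the strand that reads it, with the core in capitals.
Psmb5 (chr14:54617996-54618245, minus strand): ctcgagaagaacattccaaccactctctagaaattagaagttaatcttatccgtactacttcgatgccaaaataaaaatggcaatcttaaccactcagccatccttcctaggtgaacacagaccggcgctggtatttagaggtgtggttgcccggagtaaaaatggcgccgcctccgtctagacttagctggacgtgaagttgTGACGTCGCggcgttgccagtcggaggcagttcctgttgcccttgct
Psmb6 (chr11:70525107-70525356, plus strand): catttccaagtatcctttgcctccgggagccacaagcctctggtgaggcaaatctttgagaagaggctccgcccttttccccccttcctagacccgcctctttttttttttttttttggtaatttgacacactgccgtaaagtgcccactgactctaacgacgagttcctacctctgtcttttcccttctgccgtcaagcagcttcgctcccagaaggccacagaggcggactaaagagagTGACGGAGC
Psmc6 (chr14:45329583-45329619, minus strand): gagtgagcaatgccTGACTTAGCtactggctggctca
Psmd12 (chr11:107479278-107479303, minus strand): gaggggggcaaatgTGACACAGCaga
Psmd9 (chr5:123228145-123228181, plus strand): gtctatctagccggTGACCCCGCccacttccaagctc
The core lies 47 to 39 bases before the start of Psmb5 and 9 to 1 bases before that of Psmb6.

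A run known as the motif of nuclear respiratory factor, GCGCA and GCGC parted by 1 base of any kind, was present in 6 of the 28 members (21.4%), against 4.23% of the symbols. It is shown in capitals because it was the motif with the largest ratio of shares among the 5 searched. Those 6 are Psma2, Psma3, Psma4, Psmc4, Psmc5 and Psmd14, and whether the motif gathers in any role group was not tested.
Psma2 (chr13:14613101-14613138, plus strand): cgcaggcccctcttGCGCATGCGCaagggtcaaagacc
Psma3 (chr12:70974531-70974568, plus strand): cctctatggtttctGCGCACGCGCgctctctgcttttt
Psma4 (chr9:54950784-54950821, plus strand): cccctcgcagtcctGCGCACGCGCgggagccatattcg
Psmc4 (chr7:28050238-28050275, minus strand): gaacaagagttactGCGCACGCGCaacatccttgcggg
Psmc5 (chr11:106256122-106256159, minus strand): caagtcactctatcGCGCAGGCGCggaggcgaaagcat
Psmd14 (chr2:61711600-61711637, minus strand): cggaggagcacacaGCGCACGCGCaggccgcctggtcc
The ETS motif CCGGAAG was present in 9 members (32.1%, against 7.83% of the symbols), the CCAAT box in 11 (39.3%, against 37.5%) and a pair of GAAA runs parted by NN, the core of interferon-stimulated elements, in 3 (10.7%, against 3.46%). All were searched on both strands. The 5 motifs were picked after the promoters had been read, hits were counted whether or not they overlapped another motif, and the median GC content was 54.6% in the members' windows and 52.4% over all windows. For all 5 motifs the share is over every symbol with a window, expressed here or not. Shares over the tested genes alone were not computed. A match describes the letters in these windows and is not a bound site.

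The library totals recovered from the steps of the RPKM values ran from 2205187 to 2674826 reads, so that 1 read on a transcript of 1 kb was worth 0.374 to 0.453 RPKM. Members together held 7097 to 14387 reads a library. All 8 macrophage markers were at 1 RPKM or more in each library, with summed levels of 11306 RPKM in untreated cells and 10882, 7413 and 7782 RPKM after 1, 6 and 12 h of KLA, and 6536 RPKM after 24 h of KLA against 9310 RPKM in its untreated control. The macrophage markers were thus lowest in the 24 h KLA library, where the members' sum was highest. The summed neutrophil markers, 5 of 6 with a row, were higher after 24 h of KLA (122.6 RPKM) than in its control (45.5 RPKM). S100a9 and Ngp were at 0 in both of these libraries, and Retnlg and Camp were at 0 in the control only. Of the 5, 2 were at 1 RPKM or more after 24 h of KLA and 1 in its control. In the same pair of libraries the 6 markers of fibroblasts and mesothelium summed to 181 RPKM against 113 RPKM. Of these 6, however, 4 were at 1 RPKM or more after 24 h of KLA and 5 in its control, and Upk3b was at 0 after KLA. The 4 B cell markers summed to 5.68 to 12.8 RPKM over the libraries, the 5 T cell markers to 0.841 to 10.9 RPKM, the 4 eosinophil markers to 0.311 to 7.23 RPKM, and the dendritic and mast cell markers to at most 1.97 and 0.832 RPKM. The part of these cells in the results was not tested. In a bulk library fewer cells of a type and less RNA per cell cannot be told apart.

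The sum of the subunit genes lay near its control at 1 and 6 h of KLA, when single members differed from theirs in both directions at 6 h, and nearly all members stood higher at 24 h. Summed over the 34 members, the level was 2579 RPKM in untreated cells and 2439.6, 2483 and 3779 RPKM after 1, 6 and 12 h of KLA, and 4108 RPKM after 24 h of KLA against 2014 RPKM in its untreated control. The 2 late KLA libraries were high and the 24 h control was the lowest of the 6. Members took up 0.538% of the library after 24 h of KLA (95% exact binomial interval 0.529 to 0.547%), against 0.274% (0.268 to 0.281%) in its control.
With each KLA library over its own control, the ratio of the summed RPKM was 0.946 at 1 h (95% interval 0.915 to 0.978) and 0.963 at 6 h (0.932 to 0.996). It was 1.47 after 12 h (1.42 to 1.51) and 2.04 after 24 h (1.98 to 2.10). Rescaled so that the median gene did not change, the sums at 1 and 6 h were above their control instead, at 1.08 and 1.42, and those at 12 and 24 h were at 1.92 and 2.20. These intervals, and all others here, cover counting error only, and no p-value can be given with 1 library a condition.

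A member is counted here as past 2-fold when its log2 ratio of RPKM + 1 reaches 1 in either direction. At 24 h, 22 of the 34 members were at least 2-fold higher with KLA, where 9.98% of all tested genes were, and none was at least 2-fold lower, where 10.6% were. At 12 h, 6 members were at least 2-fold higher, where 8.88% of all genes were, and none was lower, where 16.3% were. At 6 h, 2 members were higher, where 9.35% of all genes were, and none lower, where 22.4% were. At 1 h the counts were 0 and 0, where 3.65% and 4.09% of all genes were higher and lower.
The members' median log2 ratio was -0.11, -0.14, 0.62 and 1.11 at 1, 6, 12 and 24 h, beside -0.16, -0.46, -0.32 and -0.09 over all tested genes. Relative to the median gene the members' median was thus higher by 0.05, 0.32, 0.94 and 1.20 on the log2 scale. The members above the median of all genes numbered 18, 26, 33 and 34 at the same times.

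**Figure D1:**
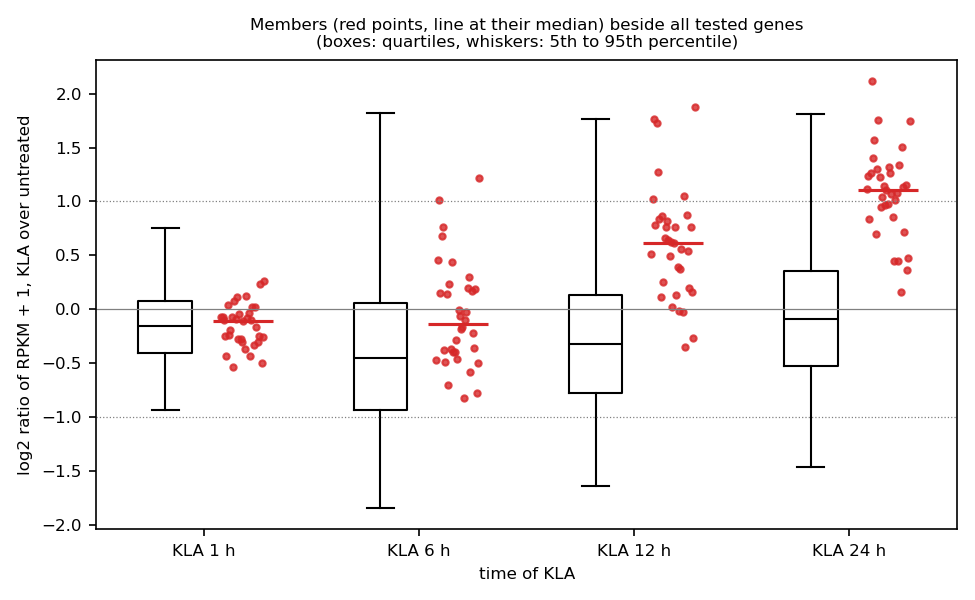
The log2 ratio of RPKM + 1 (y axis, KLA over untreated) at each time of KLA (x axis) for the 34 members (red points, line at their median) beside all 10605 tested genes (box with quartiles and median, whiskers from the 5th to the 95th percentile). The red median sits near 0 at 1 and 6 h, at 0.62 at 12 h and at 1.11 at 24 h, while the box median stays below 0 throughout.

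Counting error was also used for each member, by the 95% exact conditional binomial interval of the plain RPKM ratio. That interval lay above 1 for 33 members and below 1 for none at 24 h, beside 19.3% and 26.6% of all genes. At 12 h it lay above 1 for 24 members and below 1 for 1, Psmd8 (above 0 after rescaling), beside 14.0% and 35.8% of all genes. At 6 h the members were divided, with 8 above 1 and 12 below 1, beside 13.8% and 42.5% of all genes. Of the 12, 8 had a log2 ratio above 0 after rescaling to the median gene, and Psmb3, Psmd2, Psmd8 and Psmd5 did not. Set against the 24 h control, the 6 h library was above for 13 members and below for 3, beside 14.0% and 44.1% of all genes. At 1 h none lay above 1 and 6 lay below 1 (Psmc2, Psmc3, Psmc5, Psmd4, Psmd7 and Psmd5), beside 6.76% and 19.2% of all genes, and against the 24 h control 4 of these 6, all but Psmc2 and Psmd5, were above it.

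Of the 3 steps between KLA libraries, that of 6 to 12 h moved most members. Set against the 6 h library, the 12 h library was higher beyond counting error for 32 members and lower for none, beside 18.4% and 11.5% of all genes, with a median ratio of 1.57 for the members and 1.09 for all genes. The exceptions were Psmd6, at a ratio of 0.859, and Psmd9. Between 1 and 6 h, 8 members were higher and 5 lower beyond counting error, beside 14.2% and 32.9% of all genes. Between 12 and 24 h, 12 were higher and 3 (Psmb5, Psmb6 and Psmd7) lower, beside 28.0% and 8.92% of all genes. The last step crosses 2 culture times whose untreated libraries also differ.
The KLA library at 24 h was the highest of the 6 for 26 members and that at 12 h for 6, while the lowest was the untreated control of 24 h for 19 members and the KLA library at 6 h for 10. The shares of all tested genes with these libraries highest or lowest were not computed, so these counts cannot be read against the background.

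The 2 untreated libraries were not alike for these genes. The summed level was 2014 RPKM in the untreated cells of 24 h and 2579 RPKM in those of 1 to 12 h, a ratio of 0.781 (0.755 to 0.808). None of the members was higher beyond counting error in the 24 h control and 16 were lower, where 16.4% and 12.4% of all genes were. Psmb3 was at least 2-fold lower, where 2.42% of all genes were, and no member was at least 2-fold higher, where 1.72% were.
The choice of control therefore changes the counts. Set against the 1 to 12 h control instead, 24 h of KLA had 11 members at least 2-fold higher, where 10.3% of all genes were, and a ratio of summed RPKM of 1.59. Set against the 24 h control, 12 h of KLA had 15 members at least 2-fold higher, where 9.74% of all genes were, and a ratio of 1.88.

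**Figure D2:**
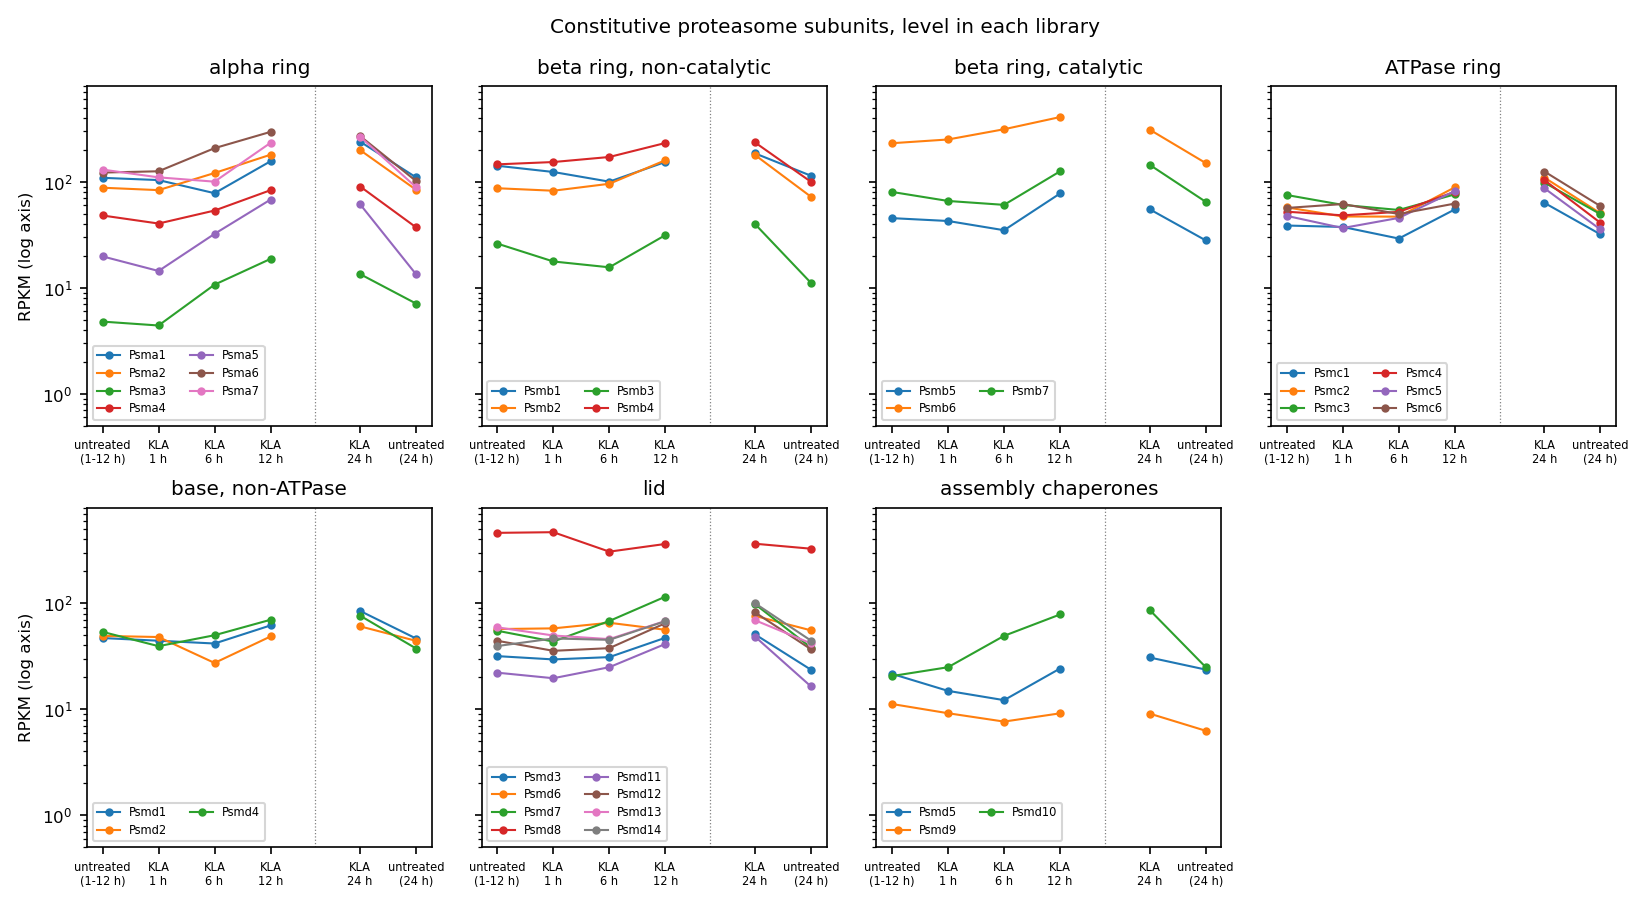
RPKM on a log axis for each member (lines) in the 6 libraries (x axis), with 1 panel for each role; the dotted line parts the untreated and KLA libraries of 1 to 12 h from the pair of 24 h. Psmd8 is the top line of the lid panel at 307 to 468 RPKM, Psma3 the bottom line of the alpha ring, and most lines turn up at 12 h.

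Levels per length ranged widely among these genes. In untreated cells of 24 h they ran from 6.27 RPKM for Psmd9 to 327 RPKM for Psmd8, with a median of 43.0 RPKM. Among the members that stay in the particle, Psma3 was the lowest in that library, at 7.08 RPKM. The coefficient of variation over the 34 members was 73.1% after 24 h of KLA and 98.2% in its control, but without Psmd8 it was 69.1% after 24 h of KLA and 67.3% in its control.

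The alpha ring was the role group with the largest number of members past 2-fold. Its subunits build the outer rings, and in yeast their tails, that of the counterpart of Psma4 above all, form the gate that admits the substrate. Summed over the 7 genes, the level was 521 RPKM in untreated cells and 482, 603 and 1034 RPKM after 1, 6 and 12 h of KLA, and 1137 RPKM after 24 h of KLA against 441 RPKM in its untreated control. The ratio was 1.98 (1.85 to 2.12) at 12 h and 2.58 (2.41 to 2.76) at 24 h. All 7 were higher beyond counting error at both times, beside 14.0% of all genes at 12 h and 19.3% at 24 h. At least 2-fold higher were 4 at 12 h and 6 at 24 h, beside 8.88% and 9.98% of all genes.
Psma5 (NM_011967, chr3:108059844-108082870, mm9), singled out after its values were seen, stood at 19.8 RPKM in untreated cells and 14.4, 32.2 and 67.9 RPKM after 1, 6 and 12 h of KLA, and 61.2 RPKM after 24 h of KLA against 13.3 RPKM in its untreated control. The 12 h and 24 h KLA libraries were both far above the others, and 24 h of KLA was 4.58-fold its control (3.27 to 6.56), the largest ratio among the members. Against the 1 to 12 h control it was 3.10-fold (2.28 to 4.27), and the largest was then Psmd10, at 4.20 (3.22 to 5.55). Of its windows of 50 bases of transcript, 57.6% also occur elsewhere in the genome.
Psma3 (NM_011184, chr12:72075610-72095910) lay farthest from its control in the ring at 6 h and was low throughout, with 4.79 RPKM in untreated cells and 4.40, 10.7 and 18.7 RPKM after 1, 6 and 12 h of KLA, and 13.4 RPKM after 24 h of KLA against 7.08 RPKM in its untreated control. The KLA libraries of 6, 12 and 24 h were above both untreated libraries. The ratio was 2.23 (1.19 to 4.38) at 6 h, 3.90 (2.20 to 7.37) at 12 h and 1.90 (1.16 to 3.17) at 24 h, and reads of 3110056K07Rik, which overlaps it, cannot be told apart from its own.
Psma4 (NM_011966, chr9:54798666-54805837) lay nearest to its control in the ring at 6 h, with 48.0 RPKM in untreated cells and 40.3, 53.5 and 83.2 RPKM after 1, 6 and 12 h of KLA, and 90.1 RPKM after 24 h of KLA against 37.1 RPKM in its untreated control. Its 6 h library lay close to untreated cells and its 12 and 24 h libraries above them, with ratios of 1.11 (0.864 to 1.44), 1.73 (1.38 to 2.19) and 2.43 (1.93 to 3.08) at 6, 12 and 24 h.
The ring was divided at 6 h: Psma2, Psma3, Psma5 and Psma6 were higher beyond counting error, at ratios of 1.38 to 2.23, while Psma1 and Psma7 were lower, at 0.716 and 0.769, though not after rescaling. By 24 h all 4 of Psma1, Psma2, Psma6 and Psma7 were past 2-fold, at 2.18, 2.37, 2.66 and 3.00.

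The non-catalytic beta subunits Psmb1, Psmb2, Psmb3 and Psmb4 complete the inner rings and carry no active site. Their summed level was 400.3 RPKM in untreated cells and 377, 383 and 576 RPKM after 1, 6 and 12 h of KLA, and 639 RPKM after 24 h of KLA against 297 RPKM in its untreated control, a ratio of 0.956 (0.868 to 1.05) at 6 h and 2.15 (1.97 to 2.35) at 24 h. At 24 h 4 of 4 were higher beyond counting error and 3 at least 2-fold, beside 19.3% and 9.98% of all genes.
Psmb3 (NM_011971, chr11:97564748-97574814) lay farthest from its control in the group at 6 h and stood at 26.1 RPKM in untreated cells and 17.7, 15.6 and 31.3 RPKM after 1, 6 and 12 h of KLA, and 39.9 RPKM after 24 h of KLA against 11.1 RPKM in its untreated control. Its 24 h control was the lowest of the 6 libraries and its 24 h KLA library the highest. The ratio was 0.597 (0.354 to 0.992) at 6 h and 3.59 (2.20 to 6.13) at 24 h. With the controls exchanged it was 1.40 (0.763 to 2.61) and 1.53 (1.04 to 2.28), and 66.7% of its windows occur elsewhere in the genome.
Psmb2 (NM_011970, chr4:126354887-126386959) lay nearest to its control at 6 h, with 86.8 RPKM in untreated cells and 82.3, 95.6 and 159 RPKM after 1, 6 and 12 h of KLA, and 179 RPKM after 24 h of KLA against 72.2 RPKM in its untreated control. The 12 and 24 h KLA libraries stood apart, at ratios of 1.84 (1.52 to 2.23) and 2.48 (2.06 to 3.00). Psmb4 was 2.35-fold (2.02 to 2.74) and Psmb1 1.63-fold (1.41 to 1.88) its control at 24 h.

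The catalytic subunits Psmb5, Psmb6 and Psmb7 hold the chymotrypsin-like, caspase-like and trypsin-like sites. Their summed level was 356 RPKM in untreated cells and 359, 408 and 610.3 RPKM after 1, 6 and 12 h of KLA, and 509 RPKM after 24 h of KLA against 243 RPKM in its untreated control. It was higher by 1.71-fold (1.57 to 1.87) at 12 h and 2.10-fold (1.91 to 2.31) at 24 h, and by 1.43-fold (1.31 to 1.56) when the 24 h KLA library was set against the 1 to 12 h control.
Psmb5 (NM_011186, chr14:55232957-55236832) stood at 45.3 RPKM in untreated cells and 42.6, 34.9 and 77.5 RPKM after 1, 6 and 12 h of KLA, and 55.0 RPKM after 24 h of KLA against 28.0 RPKM in its untreated control. The 12 h library was the highest and the 24 h control the lowest. The ratio was 0.769 (0.555 to 1.06) at 6 h, 1.71 (1.31 to 2.24) at 12 h and 1.97 (1.44 to 2.70) at 24 h, with 60.3% of its windows found elsewhere in the genome and Mir686 overlapping it.
Psmb6 (NM_008946, chr11:70338859-70341360) was the second most abundant member by the mean over the 6 libraries, with 231 RPKM in untreated cells and 250.4, 313 and 407 RPKM after 1, 6 and 12 h of KLA, and 309.9 RPKM after 24 h of KLA against 150.1 RPKM in its untreated control. Its KLA libraries of 6, 12 and 24 h all lay above both controls, at ratios of 1.35 (1.21 to 1.52), 1.76 (1.59 to 1.96) and 2.06 (1.83 to 2.33). With the controls exchanged the 24 h ratio was 1.34 (1.20 to 1.50) for Psmb6 and 1.21 (0.917 to 1.61) for Psmb5, and the 12 h ratios were 2.71 and 2.77.
Psmb7 (NM_011187, chr2:38443566-38499426) stood at 80.1 RPKM in untreated cells and 65.9, 60.5 and 125 RPKM after 1, 6 and 12 h of KLA, and 144 RPKM after 24 h of KLA against 64.7 RPKM in its untreated control. The 6 h KLA library was the lowest and that of 24 h the highest. It was lower at 6 h (0.755, 0.600 to 0.951), though not after rescaling, and higher at 12 h (1.57, 1.29 to 1.90) and 24 h (2.23, 1.85 to 2.70).

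The inducible counterparts differed from these in size and timing. Psmb8, Psmb9 and Psmb10 together stood at 169 RPKM in untreated cells and 119, 802 and 1442 RPKM after 1, 6 and 12 h of KLA, and 937 RPKM after 24 h of KLA against 99.2 RPKM in its untreated control. They were already 4.75-fold (4.28 to 5.28) their control at 6 h, or 8.08-fold against the 24 h control, when the constitutive ones were at 1.15 (1.04 to 1.26), or 1.68. At 12 h they were 8.55-fold (7.73 to 9.46), or 14.5-fold against the 24 h control, and 9.45-fold (8.37 to 10.7) at 24 h, or 5.56-fold against the 1 to 12 h control.
RNA of Psmb8, which takes the place of Psmb5, was 9.14 times that of Psmb5 per length after 24 h of KLA (95% exact interval 7.63 to 11.0), against 2.05 times (1.53 to 2.77) in its control. Psmb10, which takes the place of Psmb7, was 4.58 times Psmb7 at 6 h (3.83 to 5.52), 4.15 times at 12 h (3.66 to 4.71) and 1.68 times at 24 h (1.48 to 1.90), against 0.553 times (0.435 to 0.701) and 0.381 times (0.288 to 0.501) in the controls of 1 to 12 h and 24 h. Psmb9, which takes the place of Psmb6, stayed below it in every library, at 0.620 times (0.550 to 0.698) after 24 h of KLA against 0.115 times (0.0795 to 0.162) in its control. In the untreated cells, then, the order differed by pair: Psmb8 was above its constitutive partner, and Psmb9 and Psmb10 below theirs. Of the 50-base windows of transcript, 60.3% for Psmb5, 2.03% for Psmb6 and 15.4% for Psmb7 also occur elsewhere in the genome. For Psmb8, Psmb9 and Psmb10 no window does. The part of such copies in these ratios, and so in the order, was not tested.

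**Figure D3:**
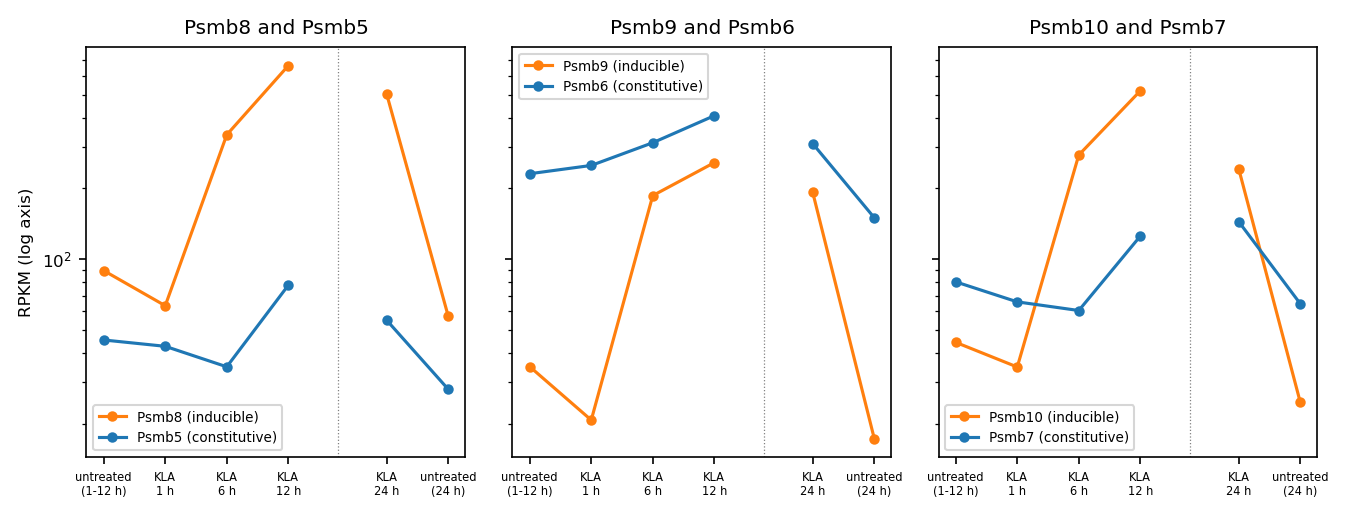
RPKM on a log axis of each inducible catalytic subunit (orange) and the constitutive one it replaces (blue) in the 6 libraries (x axis); the dotted line parts the pair of 24 h. The orange lines climb between 1 and 6 h of KLA. Psmb8 lies above Psmb5 in all 6 libraries, Psmb10 lies above Psmb7 only in the KLA libraries of 6, 12 and 24 h, and Psmb9 stays below Psmb6.

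The ATPase ring, Psmc1 to Psmc6, unfolds substrates, and the tails of Psmc1, Psmc3 and Psmc4 dock into the alpha ring and open its gate. Summed over the 6 genes the level was 327 RPKM in untreated cells and 291, 277 and 444 RPKM after 1, 6 and 12 h of KLA, and 586 RPKM after 24 h of KLA against 267 RPKM in its untreated control. It was lower at 6 h (ratio 0.848, 0.778 to 0.923, but 1.25 after rescaling) and higher at 12 h (1.36, 1.26 to 1.46) and 24 h (2.19, 2.04 to 2.36). All 6 were higher beyond counting error at 24 h, at ratios of 1.98 to 2.53, beside 19.3% of all genes. Of the 6, 4 were past 2-fold, beside 9.98% of all genes. Against the 1 to 12 h control the 24 h ratios ran from 1.31 for Psmc3 to 2.21 for Psmc6. There 1 of the 6 was past 2-fold, beside 10.3% of all genes, and the summed ratio was 1.79 (1.67 to 1.92).
Psmc3 (NM_008948, chr2:90894173-90899595) lay farthest from its control in the ring at 6 h, with 74.9 RPKM in untreated cells and 60.4, 54.2 and 76.0 RPKM after 1, 6 and 12 h of KLA, and 98.2 RPKM after 24 h of KLA against 49.4 RPKM in its untreated control. The 12 h KLA library was level with its own control, and that of 24 h stood above its own. Ratios were 0.723 (0.601 to 0.869), 1.01 (0.858 to 1.20) and 1.99 (1.68 to 2.35) at 6, 12 and 24 h, and with the controls exchanged 1.10 (0.900 to 1.33), 1.54 (1.29 to 1.84) and 1.31 (1.12 to 1.53).
Psmc4 (NM_011874, chr7:28826721-28835111) lay nearest to its control at 6 h, with 52.1 RPKM in untreated cells and 48.2, 52.0 and 80.3 RPKM after 1, 6 and 12 h of KLA, and 103 RPKM after 24 h of KLA against 40.9 RPKM in its untreated control. Its 1 and 6 h libraries were close to untreated cells, and the later ones were at 1.54 (1.27 to 1.88) and 2.53 (2.09 to 3.07) times their controls. Psmc6, like Psmc3, had an interval that included 1 at 12 h, with a ratio of 1.10 (0.906 to 1.34) at 12 h and 2.12 (1.82 to 2.48) at 24 h, and was singled out after its values were seen.

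The non-ATPase subunits of the base receive the substrate: Psmd4 binds ubiquitin chains, Psmd2 binds shuttle factors and the deubiquitinase Usp14, and Psmd1 holds the ubiquitin receptor Adrm1. Their summed level was 149.8 RPKM in untreated cells and 132, 119 and 180.2 RPKM after 1, 6 and 12 h of KLA, and 221 RPKM after 24 h of KLA against 128 RPKM in its untreated control, with ratios of 0.794 (0.710 to 0.887) at 6 h, 1.17 after rescaling, and 1.73 (1.58 to 1.89) at 24 h.
Psmd2 (NM_134101, chr16:20651725-20663487) lay farthest of the 3 from its control at 6 h, and below it, with 49.2 RPKM in untreated cells and 48.0, 27.3 and 48.6 RPKM after 1, 6 and 12 h of KLA, and 60.5 RPKM after 24 h of KLA against 44.1 RPKM in its untreated control. The 6 h KLA library was the single low one. The ratio was 0.556 (0.462 to 0.667) at 6 h, 0.988 (0.847 to 1.15) at 12 h and 1.37 (1.19 to 1.58) at 24 h.
Psmd4 (NM_008951, chr3:94836613-94846536) lay nearest to its control at 6 h, with 53.7 RPKM in untreated cells and 39.4, 49.9 and 69.8 RPKM after 1, 6 and 12 h of KLA, and 76.2 RPKM after 24 h of KLA against 37.4 RPKM in its untreated control. Its 12 and 24 h KLA libraries were the highest, at 1.30 (1.06 to 1.60) and 2.04 (1.65 to 2.54) times their controls, and Psmd1 was at 1.82 (1.61 to 2.06) at 24 h.

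The lid holds Psmd14, its deubiquitinase, and Psmd7, the inactive partner of that enzyme, while Psmd3, Psmd6, Psmd8, Psmd11, Psmd12 and Psmd13 form its scaffold. The summed level was 770.1 RPKM in untreated cells and 750.2, 625 and 823 RPKM after 1, 6 and 12 h of KLA, and 889 RPKM after 24 h of KLA against 584 RPKM in its untreated control, with ratios of 0.811 (0.767 to 0.858) at 6 h, 1.19 after rescaling, and 1.52 (1.45 to 1.60) at 24 h. Psmd8 weighed heavily in these sums: without it the ratios were 1.03 (0.948 to 1.12) and 2.04 (1.90 to 2.20). All 8 were higher beyond counting error at 24 h and 5 at least 2-fold, beside 19.3% and 9.98% of all genes.
Psmd8 (NM_026545, chr7:29959206-29965692), which in yeast is the last subunit to join the lid, was the most abundant member by the mean over the 6 libraries, second to Psmb6 after 6 and 12 h of KLA, and lay farthest below its control in the lid at 6 h. It stood at 461 RPKM in untreated cells and 468, 307 and 362 RPKM after 1, 6 and 12 h of KLA, and 364 RPKM after 24 h of KLA against 327 RPKM in its untreated control. The untreated cells of 1 to 12 h and the 1 h KLA library were the highest, against the run of most other members. The 6 h KLA library was the lowest, and Psmd8 was 1 of the 10 members for which it was. Ratios were 0.665 (0.615 to 0.719) at 6 h, 0.786 (0.730 to 0.846) at 12 h and 1.11 (1.03 to 1.20) at 24 h. With the controls exchanged they were 0.938 (0.865 to 1.02) and 1.11 (1.03 to 1.20) at 6 and 12 h and 0.790 (0.735 to 0.849) at 24 h, so that the direction at 12 and 24 h turned. Without Psmd8 the ratio of the summed members was 1.03 at 6 h, 1.61 at 12 h and 2.22 at 24 h.
Psmd3 (NM_009439, chr11:98543868-98557292) lay nearest to its control in the lid at 6 h, with 31.7 RPKM in untreated cells and 29.5, 31.0 and 47.2 RPKM after 1, 6 and 12 h of KLA, and 50.9 RPKM after 24 h of KLA against 23.6 RPKM in its untreated control. The first 3 values were level and the later KLA libraries higher, at 1.49 (1.21 to 1.84) and 2.16 (1.75 to 2.67).
Of the enzyme and its partner, Psmd14 was at 2.25 (1.88 to 2.70) and Psmd7 at 2.57 (2.14 to 3.11) at 24 h. Psmd7 was past 2-fold at 12 h as well (2.09, 1.77 to 2.49). Psmd11, which clamps the lid to the core particle, was at 2.95 (2.26 to 3.90) and Psmd12 at 2.23 (1.85 to 2.69). Psmd13 and Psmd6 were not past 2-fold, at 1.65 (1.36 to 2.01) and 1.37 (1.13 to 1.66), and Psmd6 moved least of all members over the 6 libraries, its highest value being 1.37 times its lowest.

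The assembly chaperones Psmd5, Psmd9 and Psmd10 hold the ATPases in place until the base is built, and they did not move together. Psmd10 (NM_016883, chrX:137482964-137491250), also known as gankyrin and as a binding partner of the retinoblastoma protein, lay farthest from its control in the group at 6 h. It stood at 20.6 RPKM in untreated cells and 24.9, 49.2 and 78.4 RPKM after 1, 6 and 12 h of KLA, and 86.3 RPKM after 24 h of KLA against 25.0 RPKM in its untreated control. The untreated and 1 h libraries were low and the 3 later KLA libraries high, with ratios of 2.39 (1.79 to 3.23) at 6 h, 3.81 (2.90 to 5.06) at 12 h and 3.46 (2.74 to 4.39) at 24 h.
Psmd9 (NM_026000, chr5:123678199-123700134) lay nearest to its control at 6 h, with 11.2 RPKM in untreated cells and 9.17, 7.65 and 9.15 RPKM after 1, 6 and 12 h of KLA, and 9.09 RPKM after 24 h of KLA against 6.27 RPKM in its untreated control. The untreated control of 24 h was its lowest library, at 0.559 (0.370 to 0.838) times the 1 to 12 h control, which was its highest. Its 24 h ratio of 1.45 (0.967 to 2.20) was the one among the 34 whose interval included 1. Against the 1 to 12 h control that ratio was 0.81 (0.564 to 1.17). Psmd5 was lower at 6 h, at 0.565 (0.402 to 0.789), and at 1.30 (1.03 to 1.65) at 24 h.

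**Figure D4:**
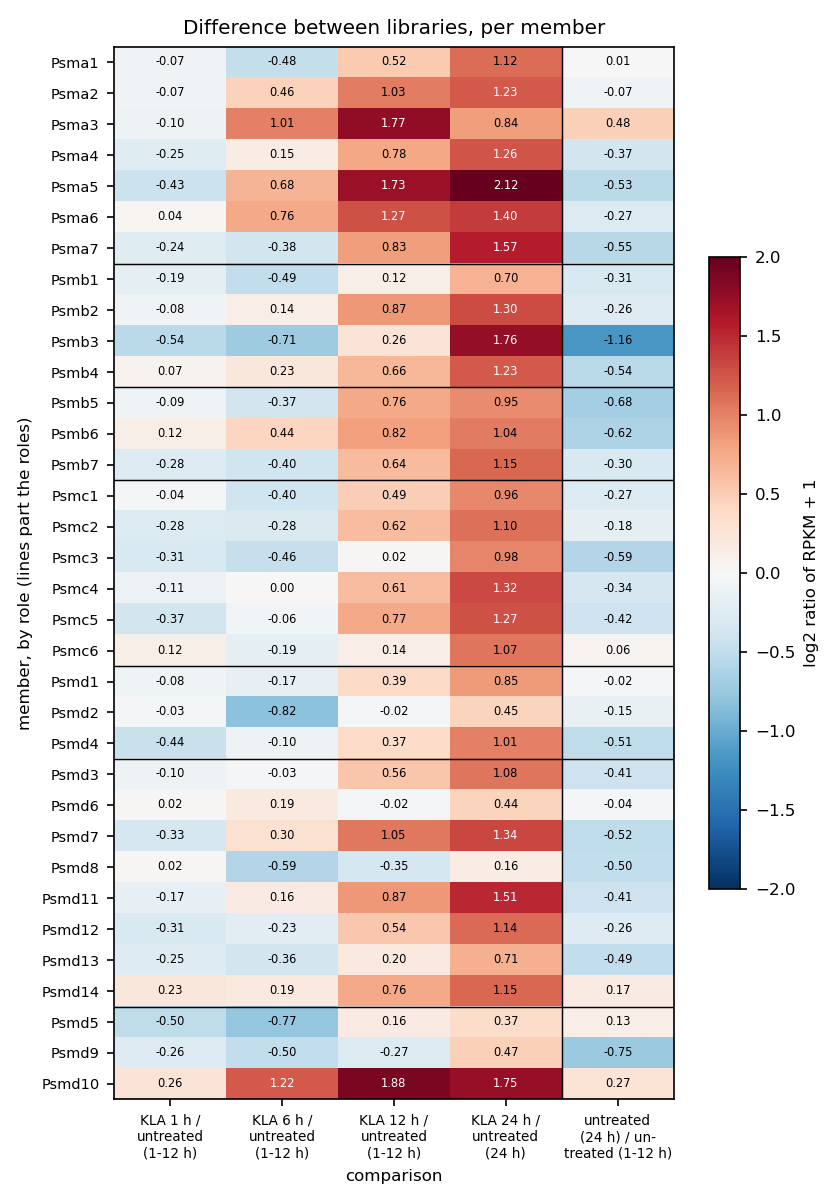
The log2 ratio of RPKM + 1 (colour and printed value, red higher) for each member (rows, lines parting the roles) in the 4 comparisons of KLA over untreated cells and, right of the line, untreated cells of 24 h over those of 1 to 12 h. The 24 h KLA column is red from top to bottom, from 0.16 for Psmd8 to 2.12 for Psma5, and the 6 h column mixes both colours.

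Many of these genes have retrocopies in the mouse genome, which can take or lend reads. A scan of GRCm38 for each 50-base window of the current RefSeq transcript found none elsewhere for 17 of the 34 members. For 10 members over 10% of the windows occurred elsewhere, and for 3, Psmb3, Psmb5 and Psma5, over 50%. The median of the mean level over the 6 libraries was 44.4 RPKM for those 10 members and 64.7 RPKM for the other 24. The part of the copies in the levels was not tested.
Of the 17 members without any such window, 17 were higher beyond counting error at 24 h and 12 at least 2-fold, beside 19.3% and 9.98% of all genes. Their median log2 ratio was 1.11. Of the 10 members with over 10% of windows elsewhere, 10 were higher and 6 at least 2-fold, with a median of 1.19. At 12 h 13 of the 17 and 8 of the 10 were higher beyond counting error, beside 14.0% of all genes, with medians of 0.61 and 0.77. The scan finds exact matches only, and the part of the copies in these differences was not tested. Transcripts of other genes overlap Psma3, Psma4, Psmb5 and Psmd1, and no source used here says whether the counting took account of strand.

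**Figure D5:**
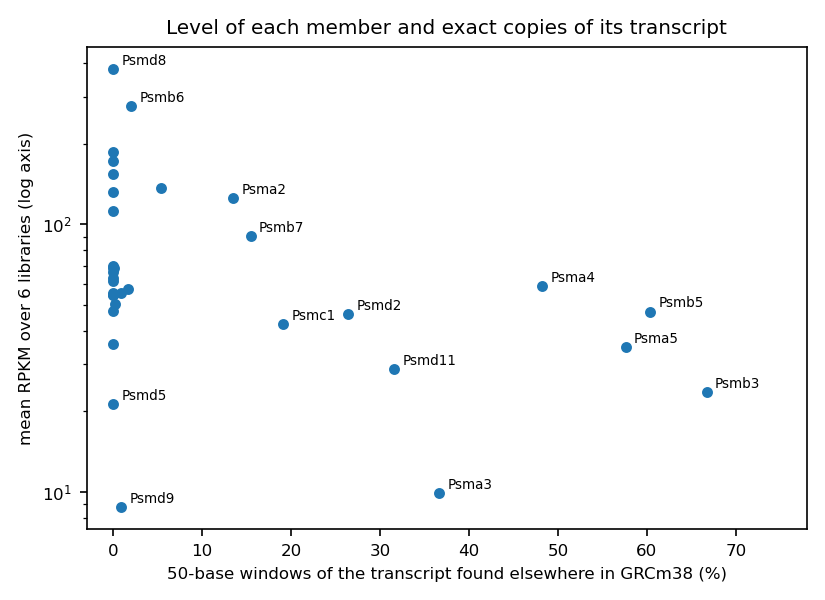
Mean RPKM over the 6 libraries (y axis, log) against the share of 50-base transcript windows that also occur elsewhere in GRCm38 (x axis, %) for the 34 members (points). The points with over 50% of windows elsewhere, Psmb3, Psmb5 and Psma5, lie below 50 RPKM, and Psmd8 and Psmb6, at the top, have 0% and 2.03%.

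The other genes of the pathway were taken from a list of 35, of which 34 had a row and 32 were at 1 RPKM or more in 2 libraries. The testis subunit Psma8 and the thymus subunit Psmb11 were not, with highest values of 1.07 and 0.0993 RPKM. At 24 h 8 of the 32 were at least 2-fold higher and 1 lower, beside 9.98% and 10.6% of all tested genes. At 12 h the counts were 5 and 1, beside 8.88% and 16.3%, and at 6 h 5 and 2, beside 9.35% and 22.4%. At 1 h none was past 2-fold, beside 3.65% and 4.09%.
The activator caps Psme1 and Psme2, partners of the immunoproteasome, were among those higher. Psme1 stood at 78.1 RPKM in untreated cells and 64.9, 180.1 and 355 RPKM after 1, 6 and 12 h of KLA, and 314 RPKM after 24 h of KLA against 51.5 RPKM in its untreated control, and Psme2 at 22.8 RPKM in untreated cells and 21.5, 119 and 203 RPKM after 1, 6 and 12 h of KLA, and 142 RPKM after 24 h of KLA against 20.9 RPKM in its untreated control. Every KLA library from 6 h on was above both controls for these 2 genes, with ratios at 24 h of 6.11 (5.07 to 7.41) and 6.79 (4.92 to 9.58), or 4.03 and 6.22 against the 1 to 12 h control. The nuclear activators Psme3 and Psme4 were at 1.27 (1.04 to 1.56) and 1.78 (1.54 to 2.07).
Pomp, the chaperone on which the beta subunits assemble, stood at 195 RPKM in untreated cells and 149, 229 and 360.1 RPKM after 1, 6 and 12 h of KLA, and 344 RPKM after 24 h of KLA against 127 RPKM in its untreated control. The 12 and 24 h KLA libraries were high, at 1.84 (1.61 to 2.11) and 2.72 (2.34 to 3.16) times their controls, and that of 24 h was at 1.76 against the 1 to 12 h control. Of the alpha ring chaperones, Psmg4 was at 2.80 (1.64 to 5.00) at 24 h, but at 1.16 against the 1 to 12 h control, and Psmg1, Psmg2 and Psmg3 had intervals that included 1.
The regulators did not move as one. Nfe2l1, which activates subunit genes, stood at 30.4 RPKM in untreated cells and 28.2, 45.3 and 45.8 RPKM after 1, 6 and 12 h of KLA, and 63.3 RPKM after 24 h of KLA against 31.9 RPKM in its untreated control. Its 6, 12 and 24 h KLA libraries were the high ones, at ratios of 1.49 (1.27 to 1.77), 1.51 (1.28 to 1.78) and 1.98 (1.72 to 2.29). Ddi2, the protease that cuts the Nfe2l1 protein into its active form, was lower at 6, 12 and 24 h, at 0.420, 0.493 and 0.441 (0.336 to 0.575). Nfe2l2, the related factor of the oxidative stress response, was at 0.555 (0.505 to 0.609) at 24 h and Ngly1, the glycanase that acts on the Nfe2l1 protein, at 0.618 (0.442 to 0.859), but at 1.02 against the 1 to 12 h control.
Among receptors and deubiquitinases none of 8 was past 2-fold at 24 h, and the shuttle factor Ubqln2 was lower at 6 and 12 h, at 0.358 and 0.375. Among ubiquitin and upstream factors, Ubb, a ubiquitin gene, was past 2-fold at 24 h, at 2.06 (1.65 to 2.58), but at 1.12 against the 1 to 12 h control. Nploc4, a cofactor of the segregase Vcp, was at 2.05 (1.72 to 2.43).

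The 2 peak lists were read for signal at the members' starts, with a peak counted when its centre lay within 1000 bases of the transcript start in the same mm9 table. SREBP1, the activator of lipid synthesis genes, had such a peak at 10 of the 34 members (29.4%), where 41.2% of all tested genes had one. LXR, the oxysterol receptor, had one at 20 members (58.8%), where 52.2% of all genes did. The highest LXR peak at a member was that of the alpha subunit gene Psma7, at chr2:179777193-179777377. It held 134.6 normalized tags, more than 96.0% of the peaks in that list, and was 223.63 times input by the authors' own figure. The next highest peaks were at Psmb3 (77.3 tags), Psma6 (50.7 tags) and Psmc6 (45.3 tags). The fold did not follow the tags: it was 18.35 at Psmb3 but 22.14 at Psmb1, which held 13.3 tags. The file header names an input of another treatment. All SREBP1 peaks at members held 6.56 to 14.3 tags. Each list is 1 sample, and the labels do not pair it with the RNA libraries of KLA.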

How the data were processed

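Poly(A) RNA of 6 libraries and 2 ChIP-seq peak lists were used from a series of 103 samples. The RNA values are RPKM as deposited by the authors, 1 row for each of 33022 RefSeq transcripts. Bowtie 0.12.7, STAR, HOMER and the mouse build mm9 are named per the submitters' processing notes, without a role. Normalized tag counts are a signal, the peak score and the fold over input (a ratio) are the authors' own values, per the file headers of HOMER.

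Library totals were recovered from the RPKM values, of which at least 99.97% in each library came out as whole reads within 0.01 read. Depth limits precision to the intervals printed, which cover counting error only. Per symbol the row of highest mean RPKM was kept, and genes with at least 1 RPKM in 2 of 6 libraries were tested. Differences are log2 ratios of RPKM + 1, which understate low genes, or plain ratios with 95% exact conditional binomial (Clopper-Pearson) intervals; intervals of summed RPKM ratios are Poisson intervals on the log scale. With 1 library a group there is no test. A count of 2-fold members is set beside the percentage of all tested genes, except after rescaling and at another pseudocount or threshold. Alternatives were 2 other pseudocounts (0.1 and 3), other filters (none, 5 RPKM), median rescaling, the other control, the longest transcript row, a 1.5-fold threshold and other peak windows and scores. In each role group all 6 libraries are given for the members of largest and smallest absolute log2 ratio at 6 h and for the catalytic subunits; other named members were chosen after their values were seen. Members and lists were chosen with earlier results of these data known. Promoters come from RefSeq tables on GRCm38.p6, whose coordinates were not mixed with mm9. Calculations used Python 3.11.15, numpy 2.4.6, pandas 2.3.3, scipy 1.17.1, numba 0.67.0 and matplotlib 3.10.9, and were tested on simulated data.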

Additional observations from a re-analysis of the deposited data

Results flagged for a closer look

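The values below stand out because a member was lower with KLA at 6 h and higher with KLA at 24 h, each time beyond counting error; the difference between the 2 times was not tested, and the 2 comparisons use different untreated libraries. In the alpha ring the ratio was 0.716 at 6 h and 2.18 at 24 h for Psma1, and 0.769 and 3.00 for Psma7. In the beta ring it was 0.708 and 1.63 for Psmb1, 0.597 and 3.59 for Psmb3, and 0.755 and 2.23 for the trypsin-like Psmb7. Among the ATPases it was 0.754 and 1.98 for Psmc1, 0.818 and 2.17 for Psmc2, and 0.723 and 1.99 for Psmc3. In the rest of the regulatory particle it was 0.556 and 1.37 for Psmd2, 0.665 and 1.11 for Psmd8, and 0.774 and 1.65 for Psmd13, and for the chaperone Psmd5 0.565 and 1.30. After rescaling to the median gene 8 of the 12 were above their control at 6 h, all but Psmb3, Psmd2, Psmd8 and Psmd5, and against the 24 h control 4 were, Psma7, Psmb3, Psmc3 and Psmd13. At 24 h, Psmd8 was below the 1 to 12 h control.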

How the results depend on the processing

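At 12 and 24 h the members' median and the ratio of their sums stayed above no change under every alternative tried. Rescaling the libraries by the median ratio over tested genes (log2 factors -0.19, -0.56, -0.39 and -0.11 at 1, 6, 12 and 24 h) moved the members' median log2 ratio to 0.065, 0.41, 1.00 and 1.22 and the ratio of summed RPKM to 1.08, 1.42, 1.92 and 2.20, so that the sign at 1 and 6 h turned; counts of members at least 2-fold higher became 5 at 6 h and 18 at 12 h. With the other untreated library as control the medians were 0.12, 0.28, 0.95 and 0.84 and the ratios 1.21, 1.23, 1.88 and 1.59, which also turned the sign at 1 and 6 h. The counts higher were then 15 at 12 h and 11 at 24 h, beside 9.74% and 10.3% of all genes. A pseudocount of 3 left 1 member higher at 6 h, and a threshold of 1.5-fold gave 4 higher and 4 lower at 6 h and 18 higher at 12 h. The shares of all genes after rescaling, at that pseudocount and at 1.5-fold were not computed. These counts therefore cannot be read against the background. Without Psmd8, an alternative chosen after seeing the data, the ratio of sums was 1.03, 1.61 and 2.22 at 6, 12 and 24 h, and that of the lid 1.03, 1.49 and 2.04. Peaks of SREBP1 were counted at 17 members (50.0%, beside 53.3% of all genes) within 5000 bases and at 6 (17.6%, beside 28.9%) with the upper 6992 peaks of the list by score. Peaks of LXR were counted at 8 members (23.5%, beside 23.9%) with the upper 20330, so that the share above all genes seen with the whole list was absent there. Within 5000 bases LXR peaks were counted at 24 members (70.6%, beside 68.3%). Within 500 bases LXR peaks were counted at 20 (58.8%, beside 44.1%) and SREBP1 peaks at 8 (23.5%, beside 27.9%). The other filters, pseudocounts and transcript rows left these values near the reported ones. The cause of these shifts was not tested.

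No paired analysis was possible because each group has 1 library, numbered 1 in accession order, which pairs nothing and leaves no replicate block to fit; leaving out a replicate was not possible either. With 2205187 to 2674826 reads a library the low members, such as Psma3 and Psmd9, have wide intervals, and a difference between single libraries holds culture, animal and library preparation together with KLA.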
